A study of Mus musculus with 2 samples.

Results

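The postsynaptic scaffold and signalling genes described here are 38 genes listed by symbol. The rule used no measured value, but these genes and the comparison lists were chosen with earlier results of these data known. All 38 were found among 55536 annotated genes, of which 22028 are protein-coding. Total RNA was sequenced from left cerebral cortex tissue of males of the strain B6CASTF1/J, a first-generation cross of C57BL/6 and CAST, at 14 days of age. The labels name no treatment and no engineered allele. The series holds 1 group of 2 libraries, numbered as biological replicates 1 and 2, each from 300 ng of RNA with ERCC spike-ins (synthetic control RNAs). Each library has its own biosample in the labels, but the donor entry is shared, and a mention of 3 males does not tell whether animals were pooled. The spread between the libraries may therefore be technical, and with a single group there is nothing to test and no p-value is printed.

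Behind the receptors of an excitatory synapse lies the postsynaptic density, a protein lattice inside the dendritic spine. MAGUK proteins such as PSD-95 bind receptor tails, SAPAP proteins (Dlgap genes) link MAGUKs to Shank proteins, and Shanks join Homer, which reaches metabotropic glutamate receptors and calcium stores. Adaptors, GTPase regulators and the WAVE complex connect this lattice to spine actin, and gephyrin holds the corresponding place at inhibitory synapses. In the rodent cortex, synapses form and mature rapidly over the ages around eye opening, which in mice falls near the age sampled here.

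Depth was 28377847 expected counts (estimated reads) in replicate 1 and 30982776 in replicate 2. The libraries stood apart in genes of other cell types and regions. All 11 striatal projection neuron genes were lower in replicate 2 (each by more than 0.32 on the log2 scale), with summed levels of 649.6 and 198 TPM in replicates 1 and 2 (TPM is a transcript level per unit of length, scaled to a fixed total), and all 6 oligodendrocyte genes were also lower, at 1070 and 701 TPM. All 6 upper-layer genes (302 and 394 TPM), all 7 excitatory neuron genes (1689 and 1995 TPM) and all 13 activity-induced genes (241 and 375 TPM) were higher in replicate 2 on scaled counts, the scale on which the genes of every list were counted as higher or lower. Deep-layer genes were higher for 2 of 7 (204 and 135 TPM) and inhibitory neuron genes for 2 of 9 (617 and 503 TPM), while astrocyte genes were higher for 4 of 7 (1600 and 1652 TPM). The defining genes of cortical excitatory neurons were present in both libraries, with Slc17a7 at 684 and 741 TPM and Tbr1 at 47.4 and 50.3, and 0 of the 87 marker genes were at 0 in both. With 1 library on each side, a result cannot be given without either library except as the other library's own value. In RNA of whole tissue, fewer cells of a type and less RNA per cell cannot be told apart.

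The sequences that distinguish the forms of Homer1 and Dlg4 come first, because Homer1 was the gene of the 38 with the largest difference between the libraries and its forms differed unequally, and because the lipid anchor of PSD-95 depends on the first codons of Dlg4. Homer1 lies on chromosome 13 (93299635 to 93405129, mm10, plus strand). Its long forms carry an N-terminal EVH1 domain, which binds Shank and metabotropic receptors, and a coiled coil through which they assemble. The short form Homer1a, an activity-induced product, keeps the EVH1 domain and ends before the coiled coil. Below, 4 GENCODE M21 transcripts are read from the end of the coding part they all share (lower case) into the coding bases that come next in each (capitals). The capitals of Homer1-207 and Homer1-203 begin alike, and those of Homer1-203 then run into the bases that open the capitals of Homer1-202. In the first pair the capitals run to the stop codon, and in the second pair they show the first 60 bases of a longer coding end.
Homer1-204: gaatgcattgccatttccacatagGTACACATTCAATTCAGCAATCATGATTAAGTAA
Homer1-207: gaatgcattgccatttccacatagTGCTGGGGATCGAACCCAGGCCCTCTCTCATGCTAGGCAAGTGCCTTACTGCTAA
Homer1-203: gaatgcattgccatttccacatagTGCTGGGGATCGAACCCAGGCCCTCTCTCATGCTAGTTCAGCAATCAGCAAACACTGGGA
Homer1-202: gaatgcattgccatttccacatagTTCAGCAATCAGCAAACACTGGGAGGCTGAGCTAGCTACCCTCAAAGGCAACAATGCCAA
Homer1-204 reads from the shared exon straight into an intron of the long forms (chr13:93356056-93356113) and stops after 34 more bases, giving 186 codons, the structure known for Homer1a. Homer1-207 uses a later exon and stops after 55 more bases, giving 193 codons, whereas Homer1-203 and Homer1-202 continue to 366 and 370 codons.

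Dlg4 lies on chromosome 11. The first coding bases of 3 of its transcripts are given with cysteine codons in capitals, since palmitoylation of N-terminal cysteines is known to anchor PSD-95 to the membrane.
Dlg4-203: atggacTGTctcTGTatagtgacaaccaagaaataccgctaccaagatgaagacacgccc
Dlg4-206: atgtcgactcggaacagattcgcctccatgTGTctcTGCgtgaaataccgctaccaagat
Dlg4-201: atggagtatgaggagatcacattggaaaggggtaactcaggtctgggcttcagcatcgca
Cysteine codons stand at positions 3 and 5 of Dlg4-203 (724 codons) and at positions 11 and 13 of Dlg4-206, counted from the start codon, and 0 of the first 20 codons of Dlg4-201 encode cysteine.

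As a set, the 38 genes were abundant in both libraries. Their median level was 84.3 TPM in replicate 1 and 92.8 TPM in replicate 2 (88.6 ± 5.99, SD, n = 2), against medians of 3.75 and 3.66 TPM over all protein-coding genes. In both libraries 37 of the 38 reached TPM 10, which 36.5% of protein-coding genes did, and 16 reached TPM 100, which 3.99% did. Together they held 4236 and 4654 TPM and took 1.249% and 1.35% of the gene counts. The 22 presynaptic active zone genes listed for comparison had medians of 60.6 and 65.2 TPM, and 33 other postsynaptic genes, receptors and enzymes among them, had medians of 101 and 100.03 TPM. All 38 genes passed the filter on low counts, with 136 (Homer3, replicate 1) to 36688 counts (Shank1, replicate 2). Ranked by mean level, 18 of the 37 neighbouring pairs were separated, meaning that both libraries gave the same order and the mean log2 ratio exceeded its SD, and 19 were not.

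**Figure D1:**
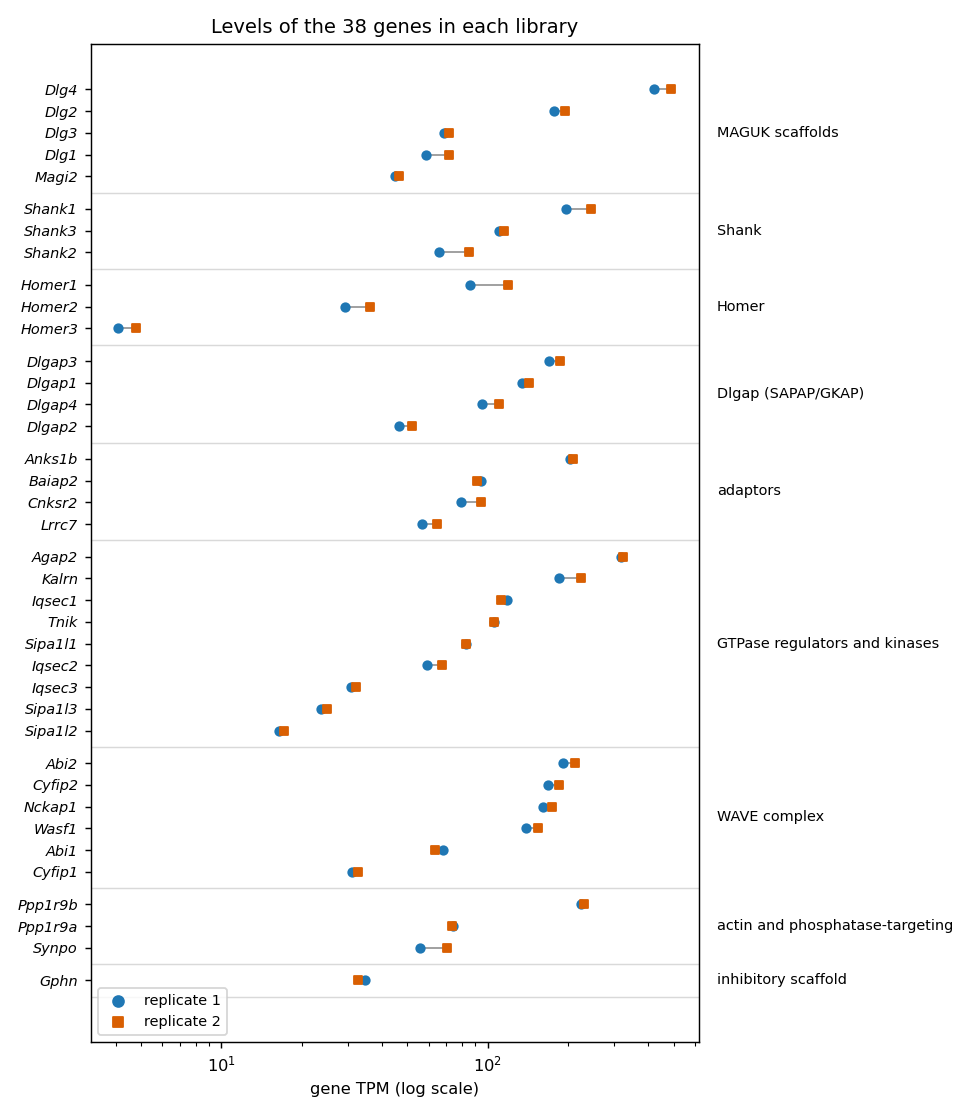
Gene TPM (log axis) of the 38 genes in replicate 1 (circles) and replicate 2 (squares), grouped by role, with a line joining the libraries. Dlg4 is highest at 423 and 489 TPM and Homer3 lowest at 4.10 and 4.77, and within most families 1 gene lies well above its relatives.

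Among the MAGUK scaffolds, which tether receptors and channels through PDZ domains, Dlg4 (PSD-95) was the highest of all 38 genes, at 423 TPM in replicate 1 and 489 in replicate 2. It ranked 80 among protein-coding genes and held 58.5 ± 0.699% of the TPM of the 4 Dlg genes. Dlg2 (PSD-93, chromosome 7) followed at 178 and 196 TPM. Dlg3 (SAP102, on the X chromosome), the MAGUK prominent at early postnatal synapses, stood at 68.7 and 71.7 TPM, and Dlg1 (SAP97) at 58.95 and 71.8. Dlg3 and Dlg1 were not separated, since they lay within 0.1 TPM of each other in replicate 2, whereas the other Dlg neighbours were separated in both transcript quantifications. Magi2, a scaffold of the inverted MAGUK type, was lowest of this role at 45.1 and 46.6 TPM, above its relative Magi1 (33.4 and 36.4).

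The forms of Dlg4 were divided differently by the quantifications. In the first transcript table, transcripts that share the start of Dlg4-203 held 63.2% and 65.5% of the gene's TPM (268 and 320.5 TPM). Those starting at the internal methionine of Dlg4-201, which carry none of the cysteine codons printed above, held 29.4% and 28.1%. The single transcripts Dlg4-203 and Dlg4-201 took 53.0% and 56.3%, and 23.1% and 19.6%. In the second table the same classes held 29.8% and 32.4%, and 38.004% and 41.1%. Dlg4-206, an incomplete model, moved from 0.520% and 0.300% in the first table to 27.2% and 23.3% in the second. Dlg4-218, which starts like Dlg4-201, held 1.20% and 1.82% in the first table and 15.2% and 12.7% in the second. Summed, the starts printed above that hold cysteine codons (the Dlg4-203 class and Dlg4-206) took 63.8% and 65.8% of the gene in the first table and 57.0% and 55.8% in the second. In TPM, the division between these starts differed more between the tables than their sum did. In the second table Dlg4-206, of 540 bases, stood at 232 and 209 TPM on 681 and 691 counts. The Dlg4-203 class had 12768 and 15690 counts there, so the sum depends on the length scaling of a short model.

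The Shank scaffolds, which stack into the deep layer of the density, were led by Shank1 at 196 and 245 TPM. Shank3, on chromosome 15, stood at 110.0 and 115 TPM and Shank2 at 65.9 and 85.2. This order of gene TPM held in both libraries and both quantifications, and Shank1 took 53.8 ± 1.56% of the family's TPM. The order of Shank3 and Shank2 was less firm than that of Shank1. In the second table non-coding transcripts held 40.5% and 37.3% of Shank3 but 2.30% and 4.68% of Shank2. Coding transcripts alone summed slightly higher for Shank2 in replicate 2 there. Expected counts, not divided by length, were 9554 and 12971 for Shank2 and 10054 and 11533 for Shank3. All coding transcripts of Shank1 share 1 start and held 85.5% of its TPM in each library (70.4% and 72.9% in the second table), with Shank1-203 at 52.2 ± 2.34%. Shank1-201 held 24.5% and 20.7% and Shank1-202 10.5% and 10.98%. The retained-intron transcript Shank1-206 held 10.9% and 11.01% (4.52% and 5.16% in the second table), and the non-coding Shank1-205 held 2.21% and 2.64% against 25.1% and 21.9% in the second. Shank3 was spread over more forms: Shank3-203 held 43.8% and 42.6% and Shank3-201 17.8% and 21.4%, while Shank3-205, a retained-intron transcript, held 15.1% and 15.2%. Shank3-207, an incomplete model, held 11.6% and 10.7%, and the non-coding Shank3-206 2.05% and 3.01% (14.3% and 19.2% in the second table). The second table gave Shank3-201 only 0.6% in replicate 1 and 13.2% in replicate 2, so its level is uncertain.

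The forms of Shank2 differed unequally between the libraries. Shank2-202, of 1472 codons, stood at 41.0 TPM in replicate 1 and 57.9 in replicate 2, which is 62.2% and 68.0% of the gene. The transcripts with a start further downstream, Shank2-205 (1262 codons) and Shank2-201 (1255 codons), together stood at 20.9 and 21.2 TPM. Within that class Shank2-201 stood at 2.21 and 3.67 TPM, and the non-coding Shank2-204 at 1.70 and 3.57 TPM was 2.09-fold higher in replicate 2 on few counts (17.5 and 39.3). On scaled counts Shank2-202 was 1.41-fold higher in replicate 2 and the downstream class 0.982-fold. The second table gave 1.40-fold and 0.957-fold, and shares within 1 percentage point of the first for both classes. Transcripts from the most upstream start, the full-length form, were low at 2.32 and 2.49 TPM. Only 428 bases of Shank2-202 are in no other Shank2 transcript, so most reads were assigned by the quantifiers' models.

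Homer genes encode the adaptors that tie Shank to metabotropic receptors. Homer1 was highest at 85.6 TPM in replicate 1 and 119.8 in replicate 2, Homer2 stood at 29.2 and 36.2, and Homer3 at 4.10 and 4.77, the lowest of the 38 genes. Homer1 held 73.3 ± 1.76% of the family's TPM. The 874 exonic bases that Homer3 shares with Ddx49 on the opposite strand (19.8 to 21.6 TPM) add to the uncertainty of its low value, since the use of strand in counting is not given in the sources used here.

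By the definition used here (under 200 codons with a stop before that of the long forms), the short forms of Homer1 lay below the long forms in replicate 1 and above them in replicate 2, in both quantifications. Short forms (Homer1-204 and Homer1-207) summed to 35.5 TPM in replicate 1 and 60.04 in replicate 2, or 41.5% and 50.1% of the gene (45.8 ± 6.07%, SD, n = 2). Long forms (Homer1-203 and Homer1-202, with Homer1-201 at 0) summed to 45.3 and 53.1 TPM, or 52.9% and 44.3%. In the second table the short forms summed to 55.8 and 87.2 TPM and the long forms to 60.6 and 73.9. The short share there was 34.9% and 43.3% and the long share 37.9% and 36.7%, the remainder going mainly to Homer1-210, a fragment of 180 codons that ends at the stop of the long forms, at 18.6% and 12.1%. In the first table Homer1-210 was listed at 0 in both libraries. The order in replicate 1 of the second table depended on the definition: with every early stop counted as short the short share was 40.4% there, and with every form under 200 codons 53.5%, both above the long share. Homer1-206, an early-stop form of 233 codons, held 5.06% and 3.77% in the first table and 5.34% and 5.15% in the second. The difference within the short class was greatest in Homer1-204, the transcript with the structure of Homer1a, at 12.1 and 25.2 TPM in the first table and 17.7 and 35.5 in the second.

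On scaled counts Homer1-204 was 2.08-fold higher in replicate 2 in the first table and 2.02-fold in the second. Among the 9017 transcripts of any gene that averaged 500 counts or more, 0.521% were past 2-fold higher and 0.632% past 2-fold lower. Homer1-207 was 1.48-fold and 1.38-fold higher, and the long class 1.17-fold and 1.23-fold. The ratio of Homer1-204 to the long forms was 0.267 in replicate 1 and 0.475 in replicate 2, and 0.293 and 0.480 in the second table. Homer1-204 has 4383 bases of its own, all in its last exon and all within an intron of Homer1-203 (93356080 to 93386344), so reads of unspliced long-form precursor in a total RNA library would count toward it; how many did was not tested. Homer1-207 starts 1042 bases upstream of Homer1-203, and its own 709 bases lie partly there. The rest lie past the exon it shares with Homer1-203, up to 93386744, within the next intron of Homer1-203. Reads of unspliced long-form precursor would therefore count toward Homer1-207 too, and how many did was not tested. The 13 activity-induced genes were higher in replicate 2 on scaled counts beside Homer1-204, with a median log2 difference of 0.71 and the dendritic immediate early gene Arc at 21.2 and 51.0 TPM, Egr1 at 58.8 and 101 TPM, but Npas4 at 4.93 and 4.85 TPM (log2 difference 0.07). Their part in the Homer1 difference, and that of the higher upper-layer genes, was not tested.

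**Figure D2:**
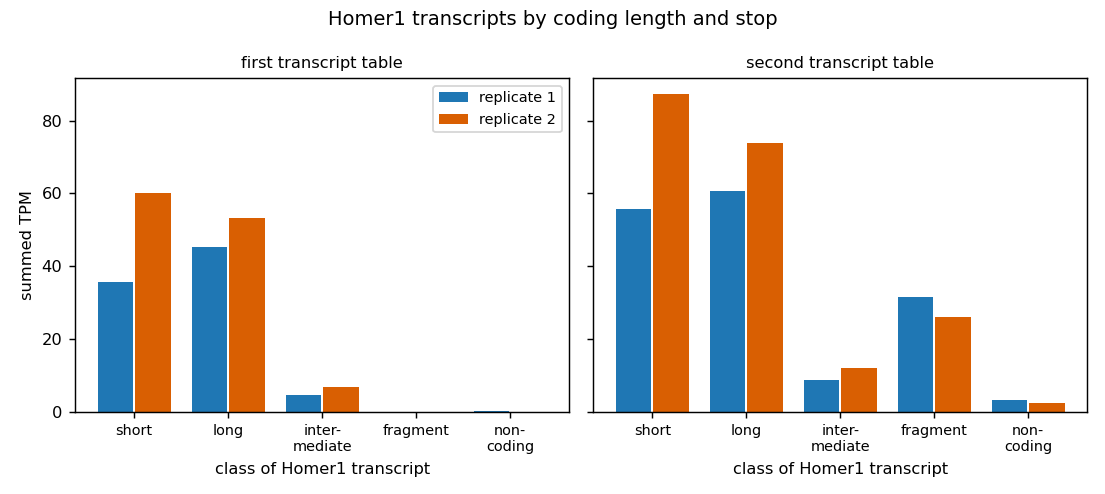
Summed TPM of Homer1 transcripts by class in replicate 1 and replicate 2 (bars from 0), in the first (left) and second transcript table (right). Short forms went from 35.5 to 60.04 TPM between replicates 1 and 2 in the first table and long forms from 45.3 to 53.1, and the fragment class is present only in the second table beyond traces.

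The Dlgap genes, whose products (SAPAP or GKAP proteins) bridge PSD-95 and Shank, were more even than the Dlg family, which has the same number of genes. Dlgap3 stood at 169.9 and 186 TPM, Dlgap1 at 135 and 144, Dlgap4 at 95.6 and 110.0, and Dlgap2 at 46.5 and 52.1. All neighbours were separated, but the leading gene held 37.95 ± 0.117%, against 58.5% for Dlg4 in the Dlg family. It was the smallest leading share of the 9 families compared, but these differ in size, and a larger family can have a lower leading share. Dlgap3-201 took 82.3 ± 1.57% of Dlgap3, whereas Dlgap1, with 20 annotated transcripts, was led by Dlgap1-211 at only 26.4% and 33.4%.

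Of the adaptors, Anks1b (AIDA-1, a PSD-95 binding protein known to signal to the nucleus) stood at 204 and 209 TPM. Baiap2 (IRSp53, which couples Rac to membrane-bending actin) stood at 94.6 and 91.1 TPM, far above its relatives Baiap2l1 (0.25 and 0.32) and Baiap2l2 (2.07 and 1.49). Cnksr2, an X-linked scaffold of Ras signalling, stood at 79.8 and 94.6 TPM against 4.97 and 4.11 for Cnksr3. Lrrc7 (densin-180, a binding partner of CaMKII) stood at 56.5 and 64.8 TPM, above Erbin (16.4 and 14.3). In each of these 3 comparisons the postsynaptic member was the higher gene in both libraries. Anks1b has 33 annotated transcripts, the most of the 38 genes, and no transcript of it held more than 19.0% in either library. The highest in the first table was the non-coding Anks1b-206 (18.6 ± 0.608%), which the second table put at 6.1%.

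The GTPase regulators and kinases were led by Agap2 (PIKE, an Arf GTPase-activating protein), the second highest of the 38 genes at 316 and 322 TPM. Almost all of it was 1 transcript, Agap2-201, at 97.2 ± 1.23%. Its relatives Agap3 (214 and 211 TPM) and Agap1 (126 and 117) were lower. Kalrn (kalirin, a Rac exchange factor of spines) stood at 186 and 225 TPM, which was 2.05 and 2.54 times its homologue Trio (90.6 and 88.7). Tnik, a kinase of the Ste20 type, stood at 106 TPM in both libraries and was the exception among these comparisons, lying below its relative Mink1 (169.05 and 159.8) and above Map4k4 (72.9 and 66.2).

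The Arf exchange factors of the Iqsec family, which regulate receptor trafficking, stood at 118 and 112 TPM for Iqsec1, 59.2 and 67.7 for the X-linked Iqsec2, and 30.6 and 32.0 for Iqsec3, a protein known from inhibitory synapses. The Rap-inactivating Sipa1l proteins were led by Sipa1l1 (SPAR, 83.1 and 83.2 TPM), above Sipa1l3 (23.7 and 24.95) and Sipa1l2 (16.4 and 17.2). Iqsec1 held 54.9 ± 2.78% of its family and Sipa1l1 66.9 ± 0.770%. The order within each family was the same in both libraries and in both tables.

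The forms of Kalrn also differed unequally between the libraries. Transcripts ending at the stop of Kalrn-207, which include the 1663 and 1654 codon forms with the ending known as kalirin-7, summed to 93.1 and 127 TPM (50.2% and 56.2% of the gene). They were 1.33-fold higher in replicate 2 on scaled counts (1.31-fold in the second table). The highest of the other coding classes, those ending at the stop of Kalrn-212, stood at 17.3 and 17.6 TPM and differed 1.01-fold (1.02-fold). Non-coding transcripts of the gene, at 47.0 and 52.5 TPM, differed 1.07-fold (1.06-fold). Among the smaller coding classes the tables were less alike: Kalrn-209, at 4.47 and 4.21 TPM, differed 0.937-fold in the first table and 0.550-fold in the second, and Kalrn-217, at 2.62 and 2.15 TPM, 0.817-fold and 1.38-fold. The class of the Kalrn-207 stop also holds Kalrn-204 (1013 codons), Kalrn-205 and Kalrn-206 (1022 codons each), which start further downstream. In the first table Kalrn-204 stood at 16.3 and 22.25 TPM, Kalrn-205 at 11.5 and 24.6 and Kalrn-206 at 21.1 and 27.8. Of the kalirin-7 forms, Kalrn-207 was higher in replicate 2 (30.8 and 51.2 TPM) and Kalrn-202 lower (13.35 and 1.00). In the second table Kalrn-207 stood at 49.6 and 67.7 TPM and Kalrn-202 at 21.9 and 10.8. Kalrn-204 (50.3 and 67.3 TPM) and Kalrn-206 (22.6 and 47.4) were higher in replicate 2 there too. The kalirin-7 forms thus moved in opposite directions, and the 1.33-fold difference of the class is not theirs alone. Single transcripts of the class were not stable, and Kalrn-205 was near 0 in the second table. The class sums are therefore compared between the libraries rather than single transcripts.

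**Figure D3:**
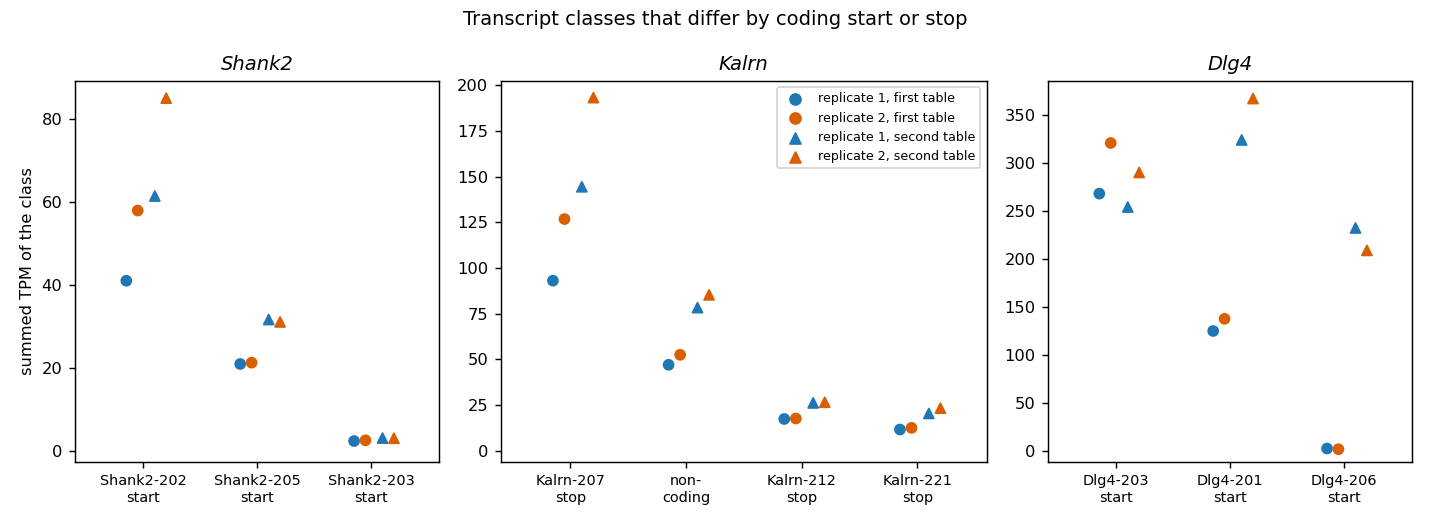
Summed TPM of transcript classes of Shank2 (by coding start), Kalrn (by stop) and Dlg4 (by start), in the first table (circles) and second table (triangles), for replicate 1 (blue) and replicate 2 (orange). The libraries are set apart in the Shank2-202 and Kalrn-207 classes in both tables, while Dlg4-206 lies near 0 in the first table and at 232 and 209 TPM in the second.

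The WAVE complex, which passes Rac signals to the Arp2/3 actin nucleator, has 5 positions, and 1 gene led each of them. Cyfip2 stood at 169 and 186 TPM against 30.9 and 32.5 for Cyfip1, a binding partner of the fragile X protein. Cyfip1 shares 1316 exonic bases with Nipa2 on the opposite strand (28.8 and 29.5 TPM), which adds to the uncertainty of the Cyfip1 value. Cyfip2 held 84.8 ± 0.417% of the pair, the largest leading share of the 9 families, although shares in families of unequal size are not directly comparable. Nckap1 stood at 162 and 175 TPM, with its blood-lineage relative Nckap1l at 5.45 and 5.02. Abi2 stood at 191 and 212 TPM against 68.1 and 63.7 for Abi1, and Wasf1 (WAVE1) at 139 and 155 TPM against 40.6 and 37.6 for Wasf3 and 16.4 and 12.4 for Wasf2. Summed by position, the levels were 199.7 and 218 TPM for Cyfip, 168 and 179.8 for Nckap1, 263 and 279 for Abi, 196 and 205 for Wasf, and 109 and 107 for the single gene Brk1. The first 4 positions lay within a 1.57-fold range in replicate 1 and a 1.55-fold range in replicate 2, and Brk1, whose product is the smallest subunit, lay below them in both.

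**Figure D4:**
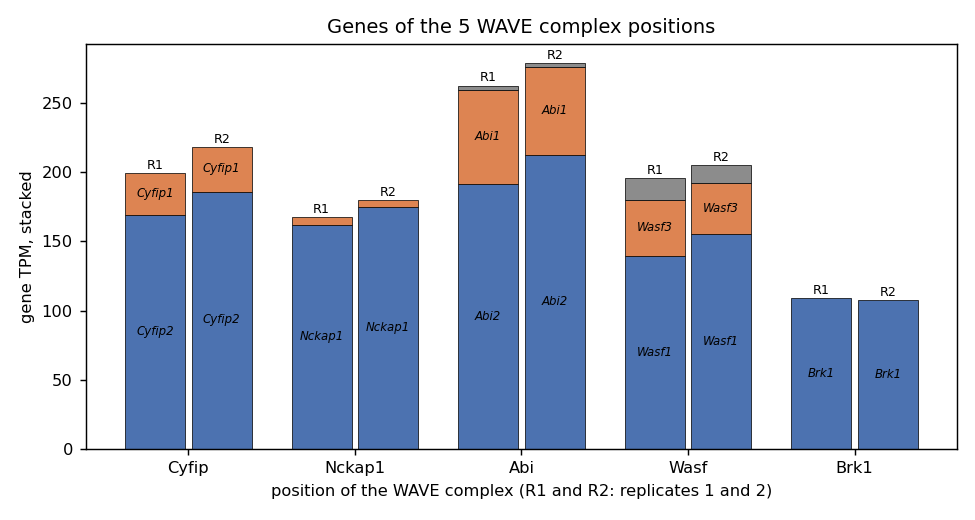
Gene TPM stacked by WAVE complex position (bars from 0; R1 and R2 are replicates 1 and 2). Cyfip2, Nckap1, Abi2 and Wasf1 fill most of their positions in both libraries, and Brk1 is lowest at 109 and 107 TPM.

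Of the actin and phosphatase-targeting proteins, Ppp1r9b (spinophilin, which brings protein phosphatase 1 to spines) stood at 225 and 229.8 TPM and held 75.5 ± 0.431% of the pair with Ppp1r9a (neurabin, 74.4 and 73.5 TPM). Synpo (synaptopodin, of the spine apparatus) stood at 55.8 and 70.5 TPM. Gphn, which encodes gephyrin, the scaffold of inhibitory synapses, was at 34.65 and 32.7 TPM, so Dlg4 exceeded it 12.2-fold and 14.95-fold. Of the genes listed as gephyrin's partners, Glrb, the beta subunit of the glycine receptor, stood at 77.9 and 82.6 TPM and Gabra2, a GABA-A receptor subunit, at 34.8 and 33.8.

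Between the libraries, the 38 genes lay mostly on the higher side in replicate 2. Of them 33 had a log2 difference above 0 (replicate 2 minus replicate 1, scaled by TMM, a normalization on the bulk of genes) and 5 below, where 49.9% of all 18965 genes tested and 55.4% of 7754 protein-coding genes with a mean of 500 counts or more were above 0. The median was 0.11, against -0.0003 over all genes tested and 0.01 over the well-counted protein-coding genes. Past a log2 difference of 0.32, the fold used here to call a gene, 5 were higher and 0 lower. The background was 10.7% higher and 13.9% lower of all genes tested, and 3.61% and 3.42% of the well-counted protein-coding genes. Past 1.5-fold, 0 of the 38 were higher or lower, where 4.35% of all genes tested were higher and 6.61% lower, and 0.658% and 1.07% of the well-counted protein-coding genes. The interval that counting error alone allows lay above 0 for 26 genes, below 0 for 2 (Baiap2 and Gphn) and spanned 0 for 10. It lay above 0 for 14.9% and below 0 for 13.7% of all genes tested, and for 25.2% and 17.4% of the well-counted protein-coding genes. The interval narrows with the count of a gene, and the spread between animals was not measured.

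The 5 genes called higher were Homer1 (log2 difference 0.53, 1.45-fold), Shank2 (0.34), Homer2 (0.34), Shank1 (0.34) and Synpo (0.33). The last 4 lay close to the fold used, which is 0.32 on the log2 scale: with scaling by library size alone they came to 0.30 to 0.31, leaving Homer1 as the 1 gene past it. Dlg1 (0.30) and Homer3 (0.28, from 136 and 177 counts) lay just under. The lowest values belonged to Gphn (-0.12), Baiap2 (-0.08) and Sipa1l3 (-0.06). Synpo, Homer1, Homer2, Shank1 and Shank2 are thus the genes whose single-library levels differ most, and their SDs in TPM are the widest relative to the mean among those above TPM 10.

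By role, the median log2 difference was 0.34 for the Shank genes, 0.34 for the Homer genes, 0.19 for the MAGUK scaffolds, 0.13 for the Dlgap genes, 0.13 for the adaptors and 0.11 for the WAVE complex. It was 0.04 for the GTPase regulators and kinases, of which 8 of 9 were above 0, and 0.004 for the actin and phosphatase-targeting genes. The relatives outside the set, of which 25 of 26 were matched and 24 passed the filter, had a median of -0.05, with 8 higher and 16 lower. The 33 other postsynaptic genes had a median of 0.05, with 26 higher and 7 lower; past the same fold 5 were higher, namely Arc, Nrgn (1006 and 1372 TPM), Cacng2, Cacng3 and Grin2a, and Gria1 (112 and 90.6 TPM) was lower. The 22 presynaptic genes had a median of 0.14, with 17 higher and 5 lower, so values above 0 in replicate 2 were not particular to postsynaptic genes. Partners of gephyrin had a median of 0.06 over 8 genes, with Slc32a1, the vesicular GABA transporter, at 62.8 and 40.8 TPM.

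These differences moved beside the markers of cell types and regions given above. The median log2 difference was 0.30 for the excitatory neuron list and 0.36 for the upper-layer list, and it was -1.90 for the striatal, -0.61 for the oligodendrocyte, -0.36 for the deep-layer and -0.26 for the inhibitory list. It was 0.007 for astrocyte, 0.02 for microglia (127 and 122 TPM), 0.08 for endothelial (121 and 114 TPM) and -0.24 for oligodendrocyte precursor genes (114 and 94.2 TPM). Red blood cell genes, at 810 and 1259 TPM, were higher by 0.73, and choroid plexus genes, at 31.8 and 122 TPM, by a median of 1.96 over 3 genes. The choroid plexus sum was almost all Ttr (30.4 and 118 TPM), and Clic6 of the same list was lower in replicate 2, with a log2 difference of -1.17. Their part in the differences of the 38 genes was not tested.

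**Figure D5:**
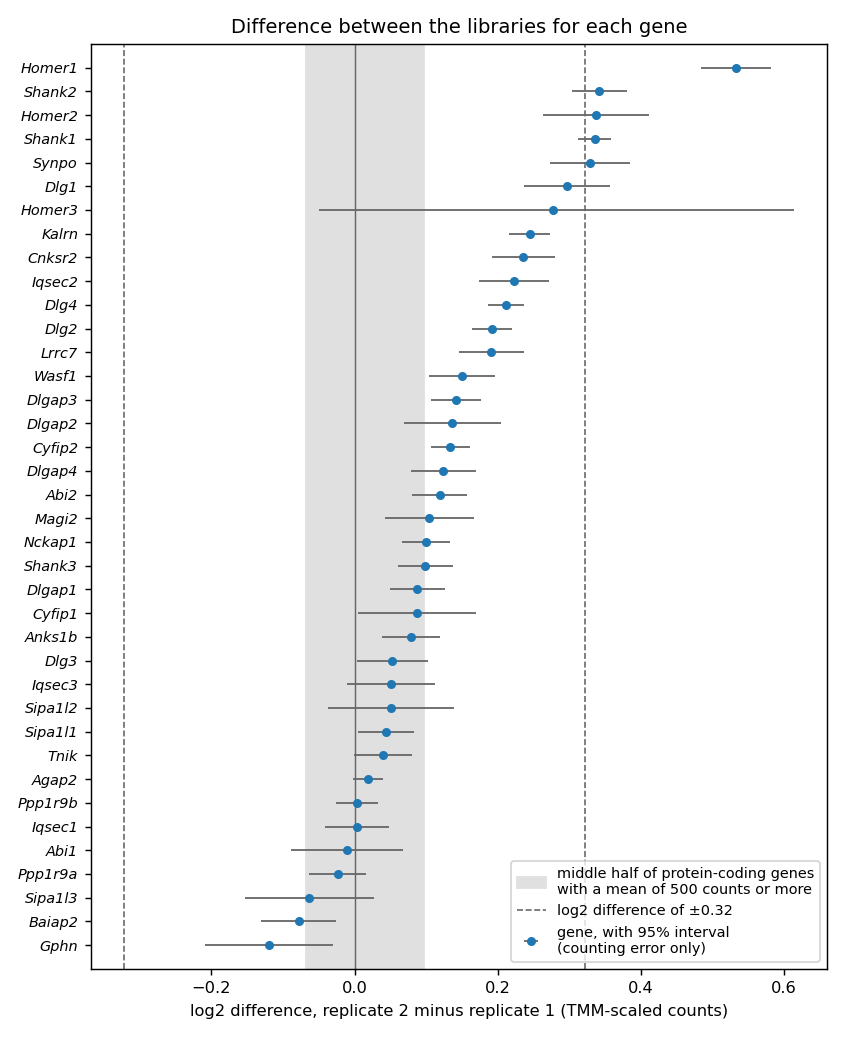
Log2 difference (replicate 2 minus replicate 1) of each gene with its 95% interval for counting error only; dashed lines mark ±0.32 and the grey band the interquartile range of 7754 well-counted protein-coding genes. Homer1 is highest at 0.53, Gphn lowest at -0.12, and 33 of the 38 points lie above 0.

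The 38 genes have many annotated forms, 402 transcripts in all, from 2 (Wasf1) to 33 (Anks1b) a gene. In 18 of the 38, a single transcript held over 50% of its gene's level in each library, where 66.0% of protein-coding genes at TPM 10 or more did, and 51.2% of those with at least 5 annotated transcripts. The second table gave 15, of which 13 were among the 18; Dlg4, Shank1, Dlgap4, Lrrc7 and Cyfip2 were over 50% in the first table alone and Sipa1l2 and Gphn in the second alone. Among the most concentrated were Agap2-201, Ppp1r9b-201 (88.0 ± 3.42%), Cyfip2-202 (83.0 ± 2.15%) and Dlgap3-201. In the second table Cyfip2-202 held 32.2% and 38.2% and Cyfip2-201 38.8% and 33.7%, so its concentration depends on the quantification. The same transcript led in both tables for 30 genes, and in both libraries of the first table for 35.

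Transcripts annotated as coding held a median of 89.6% and 93.0% of a gene's TPM, against 88.8% and 89.3% over 8051 protein-coding genes at TPM 10 or more. The lowest was Tnik at 47.35% and 50.4% (38.7% and 40.6% in the second table), and the share was 100% for Cyfip2 and Wasf1 in both libraries and both tables. By the mean of the libraries, the leading transcript of Abi2 in the first table was Abi2-209, a retained-intron form at 23.0 ± 1.48%. It was not the highest in each library, and the second table put it at 0.1% and gave 98.8% and 98.5% of Abi2 to coding forms.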

How the data were processed

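Per the file headers, the gene table and the first transcript table of each library hold deposited expected counts (estimated reads, not normalized), deposited TPM values (per length, relative to every entry of the file) and the deposited percent of a gene's TPM in each transcript, with posterior means. The second transcript table holds deposited estimated counts and TPM values from another quantification, summed here per gene. Annotation and build are GENCODE M21 and mm10. Aligner, quantifiers and strand use: not given in the sources used here; the column names are those that RSEM and kallisto write. Effective lengths were 99 bases under the transcript length in the first table and 352 and 339 bases under it (medians of replicates 1 and 2) in the second. How far this moved TPM between short and long transcripts was not tested.

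Levels are mean TPM ± SD (n = 2). Expected counts were rounded, genes with at least 10 in 1 library were kept (18965), and log2 differences, replicate 2 minus replicate 1, came from edgeR 4.0.16 (R 4.3.3) with TMM scaling and 2 as the prior count, steps tested on simulated data. Transcript classes were compared as ratios of counts over the same scaled library sizes. Alternatives used DESeq2 1.42.0 size factors among others. Python 3.11.15 with pandas 2.3.3, numpy 2.4.6, scipy 1.17.1 and matplotlib 3.10.9 served the other steps. Intervals are exact binomial at 95% and cover counting error only. Depth is given with the results. At this depth a count of 0 allows up to 3 counts.

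Members and lists were chosen with earlier results of these data known. Named were all 38 genes, in the difference the 5 largest in each direction past the fold, the highest transcript of a gene discussed, Homer1 transcripts at 5% or more and Dlg4 and Shank transcripts at 10% or more in a library of either table; the classes of Kalrn and Shank2 by start or stop, Magi1 and other relatives were chosen after their values were seen. Homer1 short forms are coding transcripts under 200 codons that stop before the long forms' stop, and long forms have 300 codons or more. Sequences were read from GENCODE M21 transcripts on mm10. In 13 of the 38 genes exons overlap another gene, on the same strand in 2 (Dlg2 and Magi2). Alleles of the parental strains were not separated.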

Additional observations from a re-analysis of the deposited data

How the results depend on the processing

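Levels depended on the table and the scale, and 0 of the 5 genes called higher turned lower in the alternatives run. The median level was 133 TPM in the second table and 181 with TPM rescaled to protein-coding genes. By the second table, the leading share was 62.9% for Dlg4, 55.9% for Shank1, 37.0% for Dlgap3, 68.7% for Sipa1l1, 48.2% for Iqsec1, 80.6% for Cyfip2 and 76.4% for Ppp1r9b. Expected counts not divided by length gave 44.5% for Dlg4, 59.01% for Shank1, 68.5% for Homer1, 36.5% for Dlgap3, 71.9% for Sipa1l1, 42.3% for Iqsec1, 80.1% for Abi2, 89.97% for Cyfip2 and 65.4% for Ppp1r9b. Posterior mean TPM gave 37.6% for Dlgap3, 65.9% for Sipa1l1 and 84.3% for Cyfip2. The median log2 difference was 0.084 with scaling by library size alone and 0.145 with scaling on ERCC spike-ins. Genes above 0 numbered 30 and 35 under these scalings, an alternative chosen after seeing the data, against 33. Genes called higher numbered 1 with library size alone and 0 past 1.5-fold, against 5, because most of the 5 lie near the fold. On spike-ins Dlg1 joined the 5 (0.33), and by second-table counts Homer2 left them (0.31). The Homer1 short share was 39.1% in the second table, where counting every form under 200 codons as short, also chosen after seeing the data, gave 53.5% and 56.2% in replicates 1 and 2. Counting any early stop as short gave 46.95% and 55.7% in the first table and 40.4% and 49.3% in the second, where the long share was 37.9% and 36.7%, so under both of these definitions the short forms lay above the long forms in replicate 1 of the second table. The leading transcript's share moved by more than its SD in the second table for 23 of the 38 genes. The number of genes with 1 transcript over 50% stayed within 1.5 times of 18 in the alternatives run (15 in the second table), though 7 genes changed sides. The median coding share moved by less than its SD, while single genes such as Abi2 and Tnik moved further. The cause of these shifts was not tested.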
